A study of Mus musculus with 6 samples.

Results

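The FOXO transcription factors and a set of genes that restrain growth under stress were followed by 10 gene symbols, of 18193 genes with a probe set of their own on the array: the factors Foxo1, Foxo3 and Foxo4, the FOXO-linked genes Ccng2, Txnip, Irs2 and Tsc22d3, and the mTORC1 brakes Ddit4, Tsc1 and Tsc2. The members were all probe sets whose platform annotation lists one of these symbols and no other, 23 of the 45037 probe sets besides controls. The set was drawn up with the arrays known: Ddit4 and Ccng2 had been seen to move in opposite directions between the genotypes, and the others joined them by family or pathway. Differences between the genotypes in the 10 genes are therefore given as a description with no p-value. Where the threshold of the study is named for them, it is given beside the share of all expressed probe sets past it, and nothing is read from it. One further probe set that lists Foxo3 beside another symbol was left out.

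Expression was measured on 6 Affymetrix arrays that cover the mouse genome, 3 from Ts1Cje and 3 from disomic neurospheres. Neurospheres are floating colonies of neural stem and progenitor cells, here grown for 7 days from the subventricular zone, the layer lining the brain's lateral ventricles, of female mice aged 84 days. The culture medium given by the paper held insulin and the growth factors EGF and FGF2. Ts1Cje mice, bred to C57BL/6 over many generations, carry an extra copy of the distal part of mouse chromosome 16, attached to chromosome 12, and model part of the gene dosage of Down syndrome. Their extra segment holds a non-functional Sod1, so that this gene is not present at a raised dose. The controls were disomic C57BL/6 littermates, which carry no extra segment.

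FOXO factors are forkhead proteins that growth factor signalling keeps out of the nucleus. When insulin or a growth factor activates PI3K, the kinase AKT phosphorylates them and 14-3-3 proteins hold them in the cytoplasm. When the signal falls they enter the nucleus and switch on genes for cell cycle arrest, antioxidant defence and autophagy. AKT also acts on the TSC complex of Tsc1 and Tsc2, which keeps the small GTPase Rheb inactive and thereby holds back mTORC1, the kinase complex that drives protein synthesis. In the adult subventricular zone FOXO factors are known for keeping neural stem cells from being used up.

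The members lay on chromosomes 2, 3, 5, 8, 10, 17 and X, so none was in the trisomic segment of chromosome 16. RefSeq sequence for the bases before the gene start, on build GRCm38.p6, was held for 9 of the 10 genes in 11 windows of 250 bases, because Tsc22d3 has several starts. The windows of Ddit4 and Ccng2 are printed because these genes moved in opposite directions, and those of Txnip and Irs2 because they hold other motifs of the same search. Each runs 5′ to 3′ in the sense of the gene and ends at the base before its start. Capitals mark the motifs found: the FOXO element GTAAACA, the insulin response element core CAAAACA, the HIF core ACGTG and the E-box CACGTG, all searched on both strands. The ATF4 element TGATGNAA was searched too.
Ddit4, chr10:59951771-59952020, minus strand: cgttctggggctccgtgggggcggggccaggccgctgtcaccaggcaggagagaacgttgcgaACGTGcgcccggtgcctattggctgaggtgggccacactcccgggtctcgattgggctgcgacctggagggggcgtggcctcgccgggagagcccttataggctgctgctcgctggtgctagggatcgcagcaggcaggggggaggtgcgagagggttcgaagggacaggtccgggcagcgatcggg
Ccng2, chr5:93267323-93267572, plus strand: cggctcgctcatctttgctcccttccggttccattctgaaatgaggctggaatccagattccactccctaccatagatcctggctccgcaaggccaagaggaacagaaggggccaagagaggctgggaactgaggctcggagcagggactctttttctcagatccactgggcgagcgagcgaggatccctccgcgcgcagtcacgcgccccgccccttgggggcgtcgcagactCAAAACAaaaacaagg
Txnip, chr3:96557707-96557956, plus strand: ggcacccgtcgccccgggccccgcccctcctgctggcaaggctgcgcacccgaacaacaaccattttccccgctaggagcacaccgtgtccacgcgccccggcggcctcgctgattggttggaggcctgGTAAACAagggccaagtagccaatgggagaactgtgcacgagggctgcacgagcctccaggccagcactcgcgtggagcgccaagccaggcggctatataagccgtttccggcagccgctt
Irs2, chr8:11008930-11009179, minus strand: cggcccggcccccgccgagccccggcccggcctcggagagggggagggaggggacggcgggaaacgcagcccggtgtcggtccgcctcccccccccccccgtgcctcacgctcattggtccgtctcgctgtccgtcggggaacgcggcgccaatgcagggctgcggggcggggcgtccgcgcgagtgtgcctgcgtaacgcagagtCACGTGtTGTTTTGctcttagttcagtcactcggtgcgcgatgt

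The Ddit4 window held the HIF core, the letters of the site of the hypoxia-inducible factors, with its first base 187 bases before the start. In the Ccng2 window the insulin response element core began 16 bases before the start. The Txnip window held the FOXO element 121 bases before the start. Irs2 had the E-box 44 bases before its start, inside which the HIF core reads on both strands, and the insulin response element core on the other strand, TGTTTTG, 37 bases before the start. The remaining 7 windows held none of the 5 motifs. Of all 32851 windows of this length, 3.17% held the FOXO element, 5.56% the insulin response element core, 16.6% the HIF core, 6.02% the E-box and 3.45% the ATF4 element. GC content was 70% for Ddit4, 59.6% for Ccng2, 66.8% for Txnip and 72.8% for Irs2, against a median of 52.4% over all windows. A match is a run of letters and not a shown binding site.

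All values below are deposited log2 intensities. M is the Ts1Cje mean minus the disomic mean, with its standard error (SE) from the limma fit, and A is the mean of all 6 arrays. A probe set was taken as expressed where A was above 5. Of the 23 member probe sets 15 were expressed, covering 9 of the 10 genes, and 3 lay at the lowest value of the data, 2.23, on every array. Only Tsc2 had no expressed probe set.

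Between arrays the correlation over all probe sets ran from 0.991 to 0.997. Of 80 expressed probe sets in the trisomic segment 79 had M above 0, with a median M of 0.54. Of the neural stem and progenitor markers with a probe set here 8 of 9 were expressed (Gfap was not), and their mean level ran from 10.93 to 11.03 in disomic and from 10.68 to 11.13 in Ts1Cje arrays. None of 8 microglial and none of 6 ependymal markers was expressed. Neuronal markers reached A above 5 in 1 of 7 (Gap43), vascular ones in 1 of 7 (Acta2) and oligodendrocyte ones in 3 of 6 (Cnp, Mbp and Mobp). The mean level of the neuronal list was 3.03 to 3.13 in disomic and 3.20 to 3.24 in Ts1Cje arrays. Every gene of that list except Gap43 had A within 1 of 2.23, the lowest value of the data, so little can be read from this mean. The control probe sets for RNA quality stood apart by genotype: the 3′ minus 5′ difference of actin was 1.67 ± 0.15 (SD, n = 3) in disomic and 2.02 ± 0.21 in Ts1Cje arrays, and the mean level of the 18S ribosomal RNA probe sets was 11.10 ± 0.78 against 12.22 ± 0.22. The 3′ minus 5′ difference of Gapdh was 2.18 ± 0.10 in disomic and 2.34 ± 0.09 in Ts1Cje arrays. For each of these measures every Ts1Cje array lay above every disomic array, and their part in the differences below was not tested. In bulk RNA, fewer cells of a type and less RNA per cell cannot be told apart.

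Ddit4 (also REDD1) is induced by hypoxia, glucocorticoids, DNA damage and other stresses, and holds back mTORC1 through the TSC complex. On its single probe set, 1428306_at, the disomic arrays read 8.68, 7.54 and 7.97 and the Ts1Cje arrays 9.39, 8.96 and 9.67. The Ts1Cje readings all exceeded the disomic ones, and the gap between the nearest of them, 0.28, was smaller than the spread within either genotype. The group means were 8.07 ± 0.58 and 9.34 ± 0.36 (SD, n = 3), so that M was 1.27 with an SE of 0.38, a 2.42-fold higher intensity in Ts1Cje. This was one of the values that chose the set, and its moderated t was not past 4, the threshold the study used. Disomic replicate 1 was the highest of its group, and M was 1.58 without that array and 1.01 without disomic replicate 2. Ddit4l, its close relative, which also restrains mTORC1, had M of 0.10 with an SE of 0.18.

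Ccng2 encodes cyclin G2, an unconventional cyclin that is high in resting cells, slows the cell cycle and is switched on by FOXO factors. On the brighter probe set, 1416488_at, the disomic arrays read 10.38, 10.97 and 10.75 and the Ts1Cje arrays 10.29, 10.30 and 10.08. All Ts1Cje arrays lay below all disomic arrays, though the nearest pair was only 0.08 apart, and M was -0.47 with an SE of 0.18, an intensity 0.719 times that of the controls. On the dimmer one, 1448364_at, the readings were 5.45, 6.00 and 5.30 in disomic and 4.62, 4.63 and 4.08 in Ts1Cje arrays. The groups were again apart, here by 0.67, with M of -1.14, an SE of 0.27 and a fold of 0.453. This probe set was only just expressed, with A of 5.01, and it was the one member probe set past a moderated t of 4 in either direction, where 0.812% of all expressed probe sets were past it as lower in Ts1Cje. Leaving out any one of the 6 arrays took it out of that count, either by its moderated t or by an A below 5. Both probe sets of the gene thus had lower readings in every Ts1Cje array, in the direction that had chosen the gene.

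**Figure D1:**
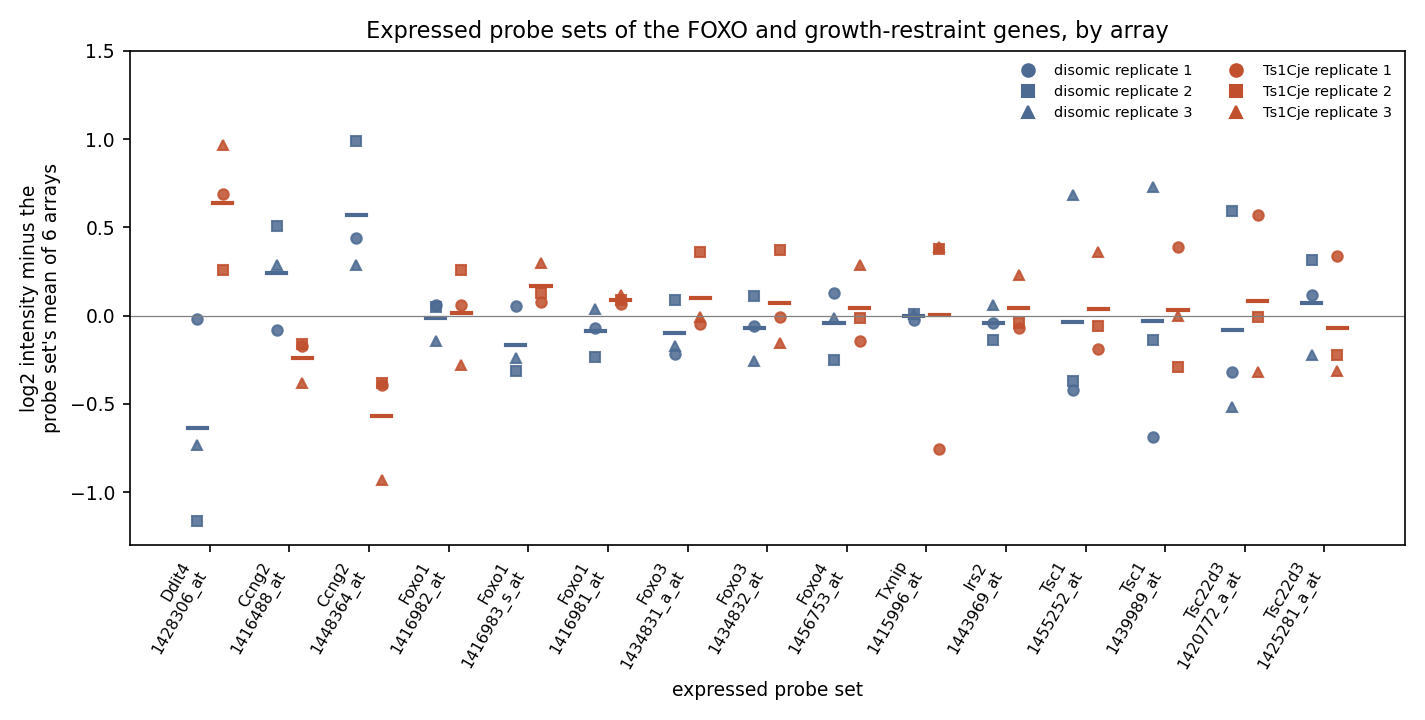
Log2 intensity on each of the 6 arrays for the 15 expressed member probe sets, each centred on its own mean over the arrays. Blue symbols are disomic and red symbols Ts1Cje arrays, the symbol shape gives the replicate and short bars are group means. Ddit4 and Ccng2 stand apart by genotype in opposite directions, and 10 probe sets overlap between the genotypes. Foxo1 1416983_s_at and 1416981_at have the Ts1Cje arrays above the disomic ones by a gap of 0.02 each.

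The 3 FOXO genes among the members were present as transcripts in both genotypes. Foxo1, known for switching on glucose production in the liver, had 3 expressed probe sets. 1416982_at read 6.98, 6.97 and 6.78 in disomic and 6.98, 7.18 and 6.64 in Ts1Cje arrays, with M of 0.03 and an SE of 0.16. On 1416983_s_at the values were 6.74, 6.37 and 6.44 against 6.76, 6.81 and 6.98, with M of 0.33 and an SE of 0.12. On 1416981_at they were 5.01, 4.85 and 5.12 against 5.15, 5.17 and 5.20, with M of 0.18 and an SE of 0.08. The first overlapped between the genotypes, and the other two had the Ts1Cje arrays above by a narrow margin. The suffix of 1416983_s_at marks probes that can match more than one transcript.

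Foxo3, which keeps adult neural stem cells in a resting state in mice, had 2 expressed probe sets. Its probe set 1434831_a_at read 10.23, 10.54 and 10.28 in disomic and 10.40, 10.81 and 10.44 in Ts1Cje neurospheres, with M of 0.20 and an SE of 0.16. For 1434832_at the readings were 8.82, 8.99 and 8.62 against 8.87, 9.25 and 8.72, with M of 0.14 and an SE of 0.18. The groups overlapped on both, and replicate 2 was the highest array within each genotype on both. Foxo4, the X-linked family member, read 6.41, 6.03 and 6.27 in disomic and 6.14, 6.27 and 6.57 in Ts1Cje arrays on 1456753_at, again overlapping, with M of 0.09 and an SE of 0.16. One probe set each of Foxo1, Foxo3 and Tsc22d3 lay at the lowest value of the data on all arrays. Of the other probe sets under A of 5, the second of Foxo4 read 2.23 to 2.25, 1425557_x_at of Tsc22d3 read 4.59 to 4.65 and 1422043_at of Tsc1 read 2.36 to 2.45, with M between 0.01 and 0.05. FOXO proteins are controlled mainly by phosphorylation and location, which these arrays do not measure.

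Txnip encodes thioredoxin-interacting protein, an arrestin family member that binds thioredoxin, limits glucose uptake and rises with glucose supply. On 1415996_at the disomic arrays read 8.79, 8.82 and 8.82 and the Ts1Cje arrays 8.06, 9.19 and 9.20. The group means were almost equal, 8.81 ± 0.01 and 8.82 ± 0.66 (SD, n = 3), with M of 0.01 and an SE of 0.36. The spread differed: Ts1Cje arrays covered a 2.21-fold range and disomic arrays a 1.02-fold range. Ts1Cje replicate 1 lay below every disomic array and the other two Ts1Cje arrays above every one, so that M was 0.39 without Ts1Cje replicate 1 and -0.18 without Ts1Cje replicate 2. With 3 arrays a genotype the difference in spread was not tested. The dimmer probe set, 1415997_at, read 4.85, 5.01 and 4.85 against 4.48, 5.12 and 4.55, again with the wider range in Ts1Cje, and M was -0.18 with an SE of 0.20.

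Irs2, the adaptor that carries insulin and IGF receptor signals to PI3K and is itself a FOXO target, read 6.67, 6.57 and 6.77 in disomic and 6.64, 6.67 and 6.94 in Ts1Cje arrays on 1443969_at. The groups overlapped, with M of 0.08 and an SE of 0.11. Its relative Irs1 was at M of -0.01 with an SE of 0.07. Tsc22d3 encodes GILZ, a leucine zipper protein strongly induced by glucocorticoids and also by FOXO factors. Its probe set 1420772_a_at read 7.14, 8.05 and 6.94 in disomic and 8.03, 7.45 and 7.14 in Ts1Cje arrays, with M of 0.16 and an SE of 0.41. On 1425281_a_at the values were 6.40, 6.60 and 6.06 against 6.62, 6.06 and 5.97, with M of -0.14 and an SE of 0.25. The arrays of both genotypes ran over about the same range, and the sign of M differed between the probe sets.

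Tsc1 encodes hamartin, the scaffold of the TSC complex. Its probe set 1455252_at read 6.77, 6.82 and 7.87 in disomic and 7.00, 7.13 and 7.55 in Ts1Cje arrays, with M of 0.07 and an SE of 0.38. On 1439989_at the values were 4.54, 5.09 and 5.96 against 5.62, 4.94 and 5.23, with M of 0.06 and an SE of 0.44. Disomic replicate 3 was the highest of the 6 arrays on both probe sets, and the disomic arrays covered 1.09 and 1.42 on the log2 scale, wider than any difference between the genotypes for this gene. Without disomic replicate 3, M of 1455252_at was 0.43. Tsc2, the subunit that inactivates Rheb, was under the level taken as expressed: 1452105_a_at read 3.83, 3.36 and 4.43 in disomic and 3.96, 4.01 and 4.19 in Ts1Cje arrays, with M of 0.18 and an SE of 0.30.

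Over the 15 expressed member probe sets M was above 0 for 12 and below 0 for 3, with a median of 0.08 against 0.01 for all expressed probe sets. In 3 of them (Ddit4 and 2 of Foxo1) every Ts1Cje array was above every disomic one, against 5.53% of the 16371 expressed probe sets. In 2 (both of Ccng2) every Ts1Cje array was below, against 5.21%. None of the 15 was past a moderated t of 4 as higher in Ts1Cje, where 0.965% of expressed probe sets were, and 1 (Ccng2) was past it as lower, where 0.812% were. As the set was chosen on this contrast, these shares are given only for reference. Besides Ddit4 and Ccng2 the other 8 genes had 12 expressed probe sets, none of them of Tsc2, with M from -0.14 to 0.33.

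**Figure D2:**
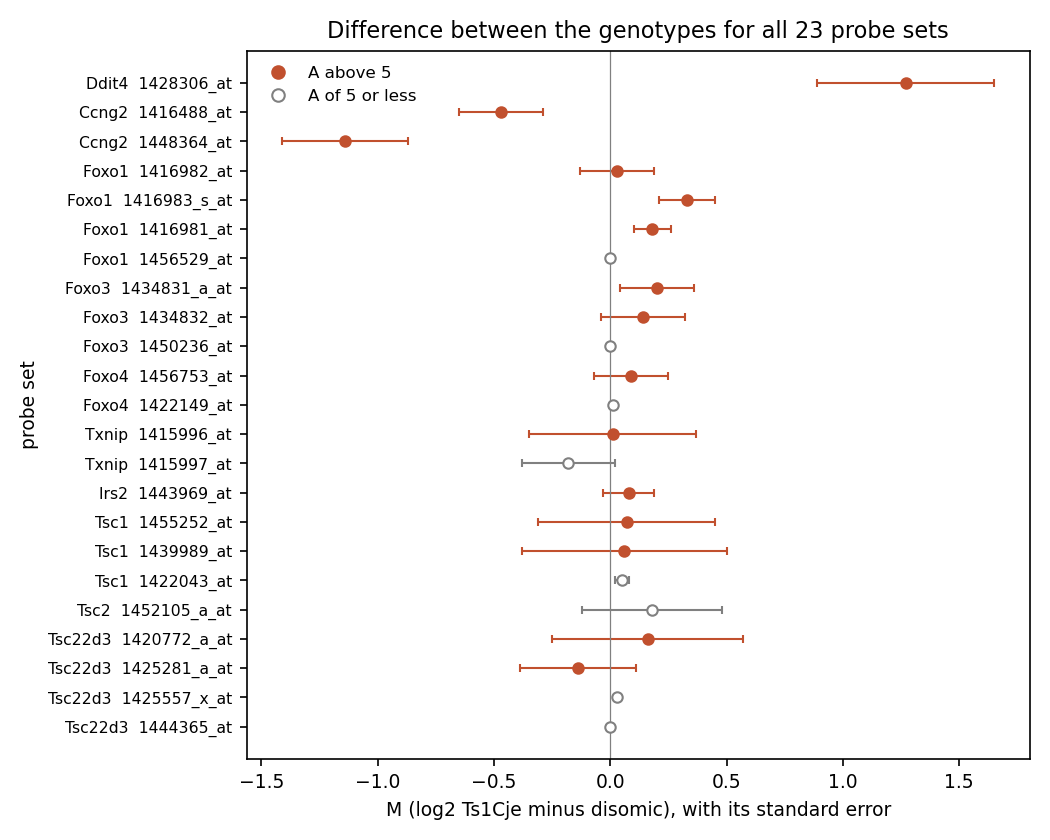
M (log2 Ts1Cje minus disomic, horizontal axis) with its standard error for all 23 member probe sets (vertical axis). Filled points have A above 5 and open points A of 5 or less. Ddit4 at 1.27 and the 2 Ccng2 probe sets at -0.47 and -1.14 lie farthest from 0.

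The question of whether the wider pathway differed between the genotypes was put to 5 lists of other genes: relatives of the members, FOXO target genes, the PI3K and AKT pathway, the mTORC1 pathway and glucocorticoid-responsive genes. These lists too were chosen with earlier results of these data known, so their p-values are not an independent test. Each gene was taken by its brightest probe set and tested with limma over all probe sets. None of the 122 expressed genes on the lists was past a moderated t of 4 in either direction, against 1.13% higher and 0.693% lower in Ts1Cje among all 8947 expressed genes. At an unadjusted p under 0.05 in limma 3 were higher and 1 was lower in Ts1Cje, against 3.73% and 2.87% of all expressed genes. The adjusted p was 1 for every one of them, and over the whole array only 1 probe set passed an adjusted p of 0.05 in limma. The adjustment ran over all 45037 probe sets besides controls, of which 13404 had the same value on every array. The prior by which limma lends variance from other probe sets carried only 0.336 degrees of freedom. With 3 arrays a genotype, the absence of a call therefore does not show that a gene did not differ. Across all expressed genes the median M was 0.02. Of these 8947 genes, 548 had every Ts1Cje array above every disomic one and 462 had every one below. On the lists the genes above were 2 relatives, 2 FOXO targets, 1 PI3K and AKT gene, 1 mTORC1 gene and 3 glucocorticoid-responsive genes. Those below were 2 PI3K and AKT genes and 1 glucocorticoid-responsive gene.

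FOXO target genes were measured as expressed in 29 of 38 cases, 17 with M above 0 and 12 below, with a median M of 0.08 and none at an unadjusted p under 0.05 in limma. Among them the mitochondrial antioxidant enzymes Sod2 and Prdx3 had M of 0.18 (SE 0.09) and 0.23 (SE 0.09). Sod2 read 12.04, 12.06 and 11.87 in disomic and 12.14, 12.07 and 12.30 in Ts1Cje arrays, apart by genotype by a narrow margin, whereas Prdx3 overlapped. Bnip3, a mitophagy receptor also induced by hypoxia, read 10.11, 9.95 and 9.55 against 9.98, 10.57 and 10.69, overlapping, with M of 0.54 and an SE of 0.27. Cdkn2d, an inhibitor of the G1 cyclin-dependent kinases, had M of -0.51 with an SE of 0.24, and its groups overlapped too.

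In the PI3K and AKT pathway 28 of 31 genes were expressed, 11 with M above 0 and 17 below, with a median M of -0.01. Phlpp1, a phosphatase that removes an activating phosphate from AKT, was the only one at an unadjusted p under 0.05 (moderated t 3.73, adjusted p = 1 in limma). It read 10.77, 10.80 and 11.06 in disomic and 11.23, 11.20 and 11.42 in Ts1Cje arrays, with M of 0.41 and an SE of 0.11, and all Ts1Cje arrays were above. Pik3r3, a regulatory subunit of PI3K, read 8.50, 8.59 and 8.72 against 8.41, 8.14 and 7.73, below in all Ts1Cje arrays, with M of -0.51 and an SE of 0.20. Among the 14-3-3 genes, Ywhab had M of 0.10 (SE 0.05) and Ywhaq of -0.02 (SE 0.01).

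For the mTORC1 pathway 43 of 48 genes were expressed, 25 with M above 0 and 18 below, with a median M of 0.01 and none at an unadjusted p under 0.05 in limma. Lamtor1, which anchors the complex that recruits mTORC1 to the lysosome, read 10.18, 10.37 and 10.19 in disomic and 10.41, 10.56 and 10.81 in Ts1Cje arrays. These groups did not overlap, and M was 0.34 with an SE of 0.13. Prkab1 and Prkab2, the beta subunits of AMPK, an energy sensor that restrains mTORC1, had M of 0.30 (SE 0.13) and 0.27 (SE 0.12), with overlapping groups. Eif4ebp2, a repressor of translation that mTORC1 switches off, had M of 0.08 with an SE of 0.04.

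Of the relatives of the members 16 of 19 were expressed, 8 with M on either side of 0, with a median M of 0.04 and none at an unadjusted p under 0.05 in limma. Tsc22d2, of the family of Tsc22d3, read 7.15, 7.33 and 7.24 in disomic and 7.91, 7.38 and 7.43 in Ts1Cje arrays, with M of 0.33, an SE of 0.17 and no overlap. Txn1, the thioredoxin that Txnip binds, had M of 0.09 with an SE of 0.06, and its Ts1Cje arrays were just above the disomic ones. Arrdc3, an arrestin relative of Txnip, had M of -0.48 with an SE of 0.34, and Tbc1d7, the third subunit of the TSC complex, of -0.18 with an SE of 0.09. Both overlapped between the genotypes.

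Glucocorticoid-responsive genes, chosen because Ddit4 and Tsc22d3 answer to these hormones, were expressed in 16 of 20 cases, 10 with M above 0 and 6 below, with a median M of 0.16. That median rested on single arrays and on the filter: it was 0.00 without Ts1Cje replicate 3, 0.06 without disomic replicate 3, 0.25 without Ts1Cje replicate 1, 0.24 without disomic replicate 1 and 0.02 with no filter on A. Mt2, a metal-binding metallothionein, read 8.82, 8.54 and 9.08 in disomic and 9.37, 9.38 and 9.63 in Ts1Cje arrays, with M of 0.65 and an SE of 0.17 (moderated t 3.82, adjusted p = 1 in limma). Its neighbour in function, Mt1, read 8.53, 7.92 and 8.57 against 9.12, 8.83 and 9.05, with M of 0.66 and an SE of 0.22 (moderated t 3.03, adjusted p = 1 in limma). Both metallothioneins were higher in every Ts1Cje array, and both also answer to metals and oxidative stress. The Mt1 probe set, 1422557_s_at, is one that can match more than one transcript. Gadd45g, a growth arrest gene, had M of -0.38 with an SE of 0.11 (moderated t -3.38, adjusted p = 1 in limma), with all Ts1Cje arrays below. Per1, a clock gene, had M of 0.37 with an SE of 0.19, above in all Ts1Cje arrays.

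**Figure D3:**
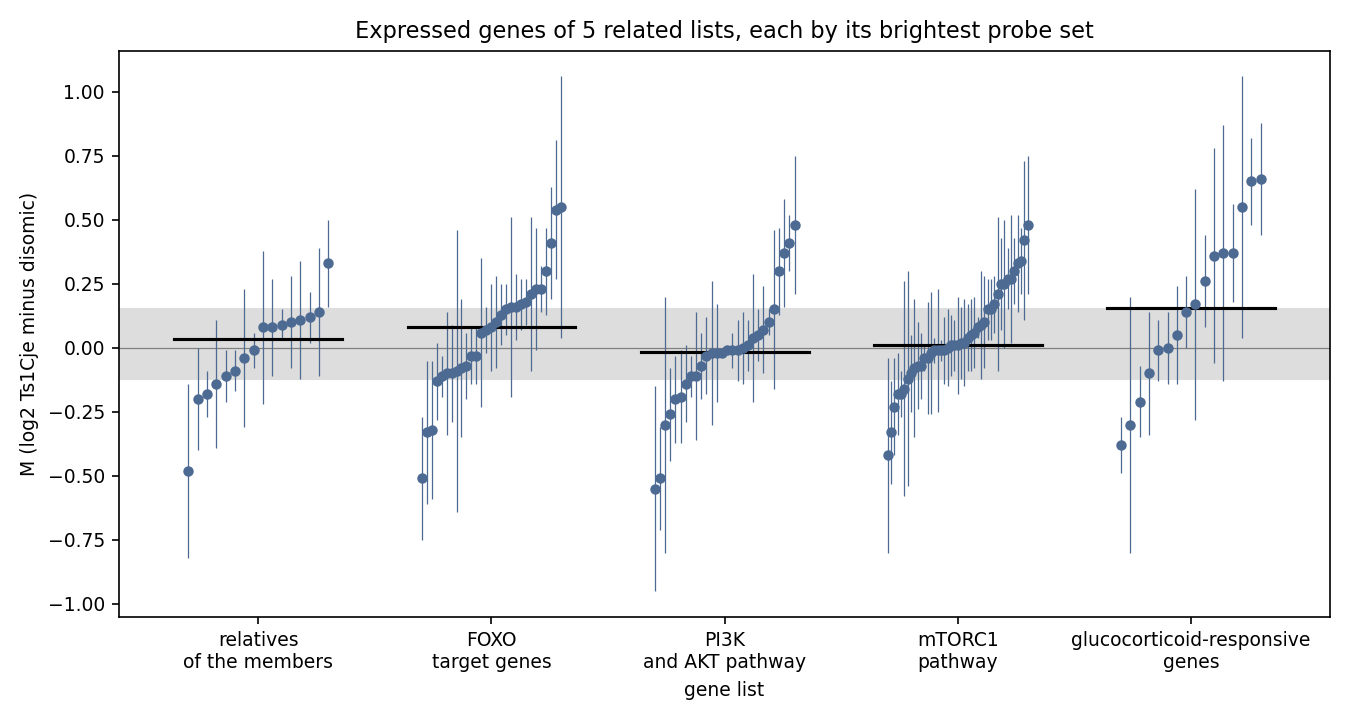
M (log2 Ts1Cje minus disomic, vertical axis) with its standard error for the expressed genes of the 5 lists (horizontal axis), each gene by its brightest probe set and sorted by M within its list. Black bars are list medians, from -0.01 to 0.16, and the grey band spans the interquartile range of all expressed genes, from -0.12 to 0.15. The genes of every list lie on both sides of 0.

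The list genes also had 118 dimmer expressed probe sets, of which 2 were past a moderated t of 4 as higher and 1 as lower in Ts1Cje, near the 0.965% and 0.812% of all expressed probe sets, and these are named after their values were seen. Sesn2, a stress-induced sestrin that restrains mTORC1 when leucine is scarce, read 6.33, 6.17 and 5.88 in disomic and 6.78, 6.94 and 6.71 in Ts1Cje arrays on 1451599_at, with M of 0.68 and an SE of 0.14. Its brightest probe set had M of 0.27 with an SE of 0.25. Gsk3b, a kinase that AKT switches off, read 7.88, 7.61 and 7.47 against 7.19, 6.88 and 6.71 on 1451020_at, with M of -0.73 and an SE of 0.18, whereas its brightest probe set had M of 0.05 with an SE of 0.10. For Ywhab 1420880_a_at had M of 0.14 with an SE of 0.03. Adjusted p was 1 in limma for all 3, and for Sesn2 and Gsk3b the probe sets of the gene differed in size by more than their standard errors.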

How the data were processed

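RNA from 3 Ts1Cje and 3 disomic neurosphere cultures was labelled with repeated amplification and hybridised to one array each. The authors deposited one log2 intensity for each probe set and array, computed with gcRMA, a background correction by probe sequence followed by normalisation between arrays and summary. The version is not given in the sources used here, and these steps cannot be repeated from the values. Replicates are biological according to the labels. The series is described as littermate pairs, and the main fit did not use pairs. The number of arrays limits the precision.

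Probe sets were named by the platform annotation, with symbols updated through gene identifiers to the RefSeq table of GRCm38.p6. All 45037 probe sets besides controls were fitted with lmFit and eBayes of limma 3.58.1 in R 4.3.3, with genotype as the only term, two-sided tests and Benjamini-Hochberg adjustment over all of them. A call was a moderated t past 4 or -4, as in the study, among probe sets with A above 5. Genes of the lists were taken by the brightest probe set with a single symbol. The fit was run on simulated data with known shifts, where only the mean M was required to match the shift. The calls were not held to a criterion there. Sequence windows were read with pandas 2.3.3 in Python 3.11.15, and plots were made with matplotlib 3.10.9.

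The members and the gene lists were chosen with earlier results of these data known. All probe sets of the 10 members are given. Of each list, up to 4 expressed genes with the largest absolute moderated t are named. Some genes of the lists are not reported here. The alternatives tried were a block for the replicate number, each array left out, cyclic loess, array weights, a prior variance dependent on intensity, other levels of A, probe sets averaged per gene and a call by adjusted p.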

Additional observations from a re-analysis of the deposited data

How the results depend on the processing

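Of the 15 alternatives 14 give an M, and only leaving out an array, cyclic loess, array weights and averaging the probe sets of a gene can change it. M ranged from 1.01 to 1.58 for Ddit4, from -0.81 to -0.34 for Ccng2 and from 0.07 to 0.30 for Foxo3. It changed sign in 14 of 139 values of the members, as for Txnip (-0.18 to 0.39), Tsc1 (-0.12 to 0.43) and Tsc22d3 (-0.08 to 0.50). Averaging the probe sets of a gene moved Ccng2 to -0.81, and gives no count of member probe sets.

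Numbers of calls at a moderated t past 4 were small and moved easily. The series is described as littermate pairs, but nothing ties the replicate number of an array to a litter, and same-numbered arrays had correlations of their deviations of -0.17, -0.03 and 0.13. With the replicate number as a block, 2 member probe sets (Ddit4 and Foxo3 1434831_a_at) were called higher and 1 (Ccng2 1448364_at) lower. Of the list genes, 2 PI3K and AKT genes (Igf1r and Phlpp1) and 2 mTORC1 genes (Prkab1 and Sesn2) were then called higher. Among glucocorticoid-responsive genes 2 (Mt1 and Mt2) were called higher and 1 (Fkbp5) lower. The block raised the calls over all expressed genes too, to 3.15% higher and 3.39% lower, and over all expressed probe sets to 3.05% and 3.56%. With array weights 1 PI3K and AKT gene (Phlpp1) and 1 glucocorticoid-responsive gene (Mt2) were called higher, where 1.30% of all expressed genes were. Cyclic loess, array weights and a prior variance dependent on intensity left the Ccng2 probe set 1448364_at called lower. So did A above 4 and no filter on A, and as the gene was chosen on this contrast, these calls support nothing. With A above 6, which leaves that probe set out, or with an adjusted p under 0.05 as the call, 0 member probe sets were lower.

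Leaving out 1 array gave 0 to 2 member probe sets called higher and 0 to 1 lower. For FOXO targets this gave 0 to 1 higher and 0 to 1 lower, for PI3K and AKT genes 0 to 1 higher, for mTORC1 genes 0 to 1 higher, and for glucocorticoid-responsive genes 0 to 1 higher and 0 to 1 lower. Over all expressed probe sets, the background for the members, the calls then ran from 1.47% to 2.04% higher and from 0.905% to 2.79% lower. Over all expressed genes, the background for the lists, they ran from 1.59% to 2.35% higher and from 0.872% to 2.7% lower. The Ccng2 probe set 1448364_at was not called in any of these. Without disomic replicate 1, 2 or 3 its A fell to 4.93, 4.82 or 4.96, at moderated t of -3.63, -4.09 and -4.32. Member probe sets called higher were those of Ddit4 and Foxo1 1416983_s_at without disomic replicate 1, Foxo1 1416981_at without disomic replicate 3 and Txnip without Ts1Cje replicate 1, and Ccng2 1416488_at was called lower without disomic replicate 1; as the members were chosen on this contrast, these calls support nothing. The cause of these moves was not tested.

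Median M of the lists ranged from -0.07 to 0.09 for the relatives, 0.01 to 0.11 for FOXO targets, -0.06 to 0.00 for PI3K and AKT genes, 0.01 to 0.08 for mTORC1 genes and 0.00 to 0.25 for glucocorticoid-responsive genes, while that of all expressed genes stayed between 0.00 and 0.02.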
